A study of Mus musculus with 4 samples.

Results

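Condensin and cohesin are ring-shaped protein complexes that shape chromosomes, and 10 of their subunit genes were followed here on 4 expression arrays of mouse colonic crypt cells. The members were the condensin genes Smc2, Smc4, Ncapd2, Ncapg, Ncaph and Ncapg2 and the cohesin genes Smc1a, Smc3, Rad21 and Stag1. They were found as all probe sets whose single gene symbol in the platform annotation is one of these names. This gave 29 probe sets, 15 for the 6 condensin genes and 14 for the 4 cohesin genes, among 34958 probe sets that name 1 gene (18194 genes). The sorted-cell pair used H2B-GFP mice, in which a tetracycline-responsive element drives a histone H2B fused to green fluorescent protein. Crypt cells of their normal colon were labelled with doxycycline for 7 days, left without it for 2 days and sorted into GFP high cells, which had kept the label and count as non-proliferating, and GFP low cells, which had diluted it and count as proliferating. The other pair came from crypts of doxycycline-inducible β-catenin mice, either untreated (Dox minus) or given drinking water with 2.0 mg/ml doxycycline over 5 days (Dox plus). All 4 samples came from male mice, and each group is 1 array. The sources used here do not give age, strain, the number of mice behind an array, or the promoter or cell type that drives either transgene. No difference below therefore has a replicate check, no test between groups was possible, and "higher" and "lower" compare 1 array with 1 array. In the Dox pair, doxycycline itself and the induction of β-catenin cannot be told apart.

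Both complexes are built on a pair of SMC proteins, long ATPases that close into a ring through a kleisin subunit. Condensin extrudes and compacts chromatin loops into rod-shaped chromosomes when cells enter mitosis. Its SMC pair, Smc2 and Smc4, is shared by condensin I, with Ncapd2, Ncapg and the kleisin Ncaph, and condensin II, with Ncapd3, Ncapg2 and the kleisin Ncaph2. Cohesin, made of Smc1a, Smc3, the kleisin Rad21 and either Stag1 or Stag2, holds sister chromatids together from replication to anaphase. It also folds chromatin into loops in interphase, so it is in use in cells that do not divide. In the colon, division is limited to the lower part of the crypt, and the differentiated cells above it have left the cell cycle.

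Promoter sequences are shown for 3 condensin genes, those with the largest differences in the sorted-cell pair, and for 2 cohesin genes. They come from RefSeq (build GRCm38.p6), where 8 of the 10 members had an entry; Smc4 and Rad21 did not. Each run is the 250 bases before the listed start site, 5′ to 3′ on the strand of the gene. Capitals mark matches, on either strand, to TTTGAA (the core of the cell cycle genes homology region, CHR), to CCAAT, and to TTTGGCGC, TTTCCCGC or TTTGGCGG (forms of the E2F site). A match on the opposite strand appears as the reverse complement.
Ncapg2, condensin II, chr12:116405186-116405435, plus strand: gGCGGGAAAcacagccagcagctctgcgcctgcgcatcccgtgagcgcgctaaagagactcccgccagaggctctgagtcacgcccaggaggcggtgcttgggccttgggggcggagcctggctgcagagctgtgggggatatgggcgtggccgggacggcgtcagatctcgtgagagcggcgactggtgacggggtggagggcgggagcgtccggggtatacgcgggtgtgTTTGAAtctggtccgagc
Ncapd2, condensin I, chr6:125191587-125191836, minus strand: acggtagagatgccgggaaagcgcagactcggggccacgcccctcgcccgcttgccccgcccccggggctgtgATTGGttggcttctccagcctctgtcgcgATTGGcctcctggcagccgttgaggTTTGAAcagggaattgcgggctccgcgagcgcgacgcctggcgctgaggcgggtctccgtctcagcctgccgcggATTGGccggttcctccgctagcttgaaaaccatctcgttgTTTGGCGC
Ncapg, condensin I, chr5:45669675-45669924, plus strand: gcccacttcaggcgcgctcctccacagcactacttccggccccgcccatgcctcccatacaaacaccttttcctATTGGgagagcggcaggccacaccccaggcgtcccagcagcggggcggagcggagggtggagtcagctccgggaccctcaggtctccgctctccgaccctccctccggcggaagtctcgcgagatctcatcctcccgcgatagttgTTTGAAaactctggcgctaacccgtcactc
Stag1, cohesin, chr9:100643198-100643447, plus strand: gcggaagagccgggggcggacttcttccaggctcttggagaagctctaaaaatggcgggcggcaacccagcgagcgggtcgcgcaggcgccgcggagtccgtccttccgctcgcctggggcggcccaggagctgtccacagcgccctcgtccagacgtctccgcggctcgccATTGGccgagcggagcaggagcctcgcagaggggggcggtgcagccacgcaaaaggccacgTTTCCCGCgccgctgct
Smc3, cohesin, chr19:53600146-53600395, plus strand: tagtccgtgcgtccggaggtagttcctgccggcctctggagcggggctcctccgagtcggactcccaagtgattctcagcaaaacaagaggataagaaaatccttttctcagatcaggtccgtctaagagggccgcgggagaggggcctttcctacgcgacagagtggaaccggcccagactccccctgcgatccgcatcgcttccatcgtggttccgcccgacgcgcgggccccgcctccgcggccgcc

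Within the full windows of 300 bases (250 before and 50 after the start), TTTGAA stood in 4 of the 5 condensin promoters (Smc2, Ncapd2, Ncapg and Ncapg2, not Ncaph) and in 0 of the 3 cohesin promoters (Smc1a, Smc3, Stag1). Of all 32851 promoters in the table, 17.9% hold it. Counted from the start site, where -1 is the base before it, the match began at -18 in Ncapg2, at -30 in Ncapg and at -123 in Ncapd2. At least 1 of the E2F forms stood in 3 condensin promoters (Ncapd2, Ncapg, Ncapg2) and in 2 cohesin promoters (Smc1a, Stag1), against 2.1% of all promoters. CCAAT stood in 3 condensin promoters (Smc2, Ncapd2, Ncapg) and 2 cohesin promoters (Smc1a, Stag1), against 37.4% of all. Ncaph and Smc3 held none of the searched motifs. The condensin promoters printed above are the 3 with both a TTTGAA and an E2F match in the full window. The E2F match of Ncapg began at 32 and 1 of those of Ncapg2 at 1, so both lie past the printed bases. The promoters of Smc2, Ncaph and Smc1a are not printed. The matches are letters in a window and were not tested for binding or for a part in the differences. None of the searched motifs overlapped another in the printed runs.

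The deposited values are GCRMA log2 expression per probe set, and values under 5 were treated as low, because most probe sets lie in the range set by the background model. The arrays of a pair correlated at r = 0.985 over all probe sets and those of different pairs at 0.930 to 0.941, so differences were taken within a pair only. The labelled tissue was checked on its markers: all 7 epithelial markers, among them Epcam and Cdh1, reached 5 on every array. Of 5 T cell, 5 myeloid, 6 fibroblast and 4 B and plasma cell markers on the arrays, at most 2 of any list did so on an array, and Cd3d, Cd3e, Cd3g, Cd79a, Col1a1 and Col1a2 did so on none. Smooth muscle (5 markers), endothelial (4) and red blood cell (2) lists stayed under 5 on all arrays. Of 3 neural markers only Sox10 reached 5, on Dox minus (5.21) and Dox plus (5.33). Some marker lists differed along with the groups. The log2 of the summed colonocyte marker level was 17.25 on GFP high and 16.49 on GFP low. For enteroendocrine markers it was 13.40 and 12.28, and 13.74 on Dox minus against 11.38 on Dox plus. Goblet markers summed to 17.10 on GFP high and 17.26 on GFP low, where Spdef was 2.94 higher in GFP low, and to 17.30 on Dox minus and 16.79 on Dox plus, where all 6 read lower, Clca1 by -1.54 and Spdef by -0.99. Fibroblast markers summed to 8.68 on Dox minus and 7.24 on Dox plus, of which only Vim reached 5, and B and plasma cell markers to 7.90 and 5.996, of which only Jchain did, on Dox minus. The part of these cells in the differences below was not tested, and in mixed or sorted cells, fewer cells of a type cannot be told apart from less RNA per cell.

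The first comparison sets proliferating against non-proliferating crypt cells. All 6 condensin genes read higher in GFP low, 5 of them by 2-fold or more (a log2 difference of at least 1), against 8.81% of the 9381 genes measured in this pair. Their median difference was 2.05 on the log2 scale (4.15-fold), where the median of all measured genes was 0.04. The cohesin genes also all read higher, but none by 2-fold, with a median of 0.49 (1.41-fold). Over all measured genes, 53.2% read higher in GFP low. Where a gene has several probe sets, the one strongest on average across all arrays stands for it.

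Among the subunits that belong to one condensin only, Ncapg2, the HEAT-repeat subunit of condensin II, differed most. It read 5.89 on GFP high and 8.54 on GFP low, and 8.46 on Dox minus and 7.99 on Dox plus. The GFP difference is 2.65 (6.30-fold), larger than that of 99.4% of measured genes. Ncapd2, a HEAT-repeat subunit of condensin I, read 6.49 on GFP high, 8.95 on GFP low, 8.29 on Dox minus and 8.21 on Dox plus. Its GFP difference was 2.46 (5.48-fold), and its other probe set stayed under 5 on all arrays. Ncapg, the other HEAT-repeat subunit of condensin I, read 6.15, 8.45, 8.86 and 7.95 in the same order of arrays. The difference was 2.31 (4.95-fold), and 1.35 on its second probe set. Ncaph, the kleisin of condensin I, read 6.68, 8.47, 8.87 and 8.54, with a difference of 1.80 (3.47-fold). This value rests on a probe set whose suffix (_x_at) marks possible matches to other transcripts; the second Ncaph probe set read 3.02 on GFP high and 4.47 on GFP low, under 5 on all arrays. In all 4 genes GFP high was the lower array of its pair and Dox plus the lower array of its own.

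The SMC subunits shared by both condensins had the smallest differences of the 6 condensin genes on their strongest probe sets, though a weaker Smc2 probe set gave at least 2.05, more than Ncaph. Smc2 read 8.11 on GFP high, 9.57 on GFP low, 10.23 on Dox minus and 10.06 on Dox plus. The GFP difference was 1.46 (2.76-fold). Of its 4 other probe sets, 1 read 3.88 on GFP high and 7.05 on GFP low, a difference of at least 2.05 with GFP high set to 5. Another read 4.26 and 5.46 (at least 0.46), and the other two stayed under 5 on all arrays. Smc4 read 10.43, 11.21, 11.50 and 11.10, with a GFP difference of 0.78 (1.72-fold). Its other probe sets gave 1.38 and 1.34, so its mean over 3 probe sets was 1.17 and past 2-fold. Counted by probe set, all 11 measured condensin probe sets read higher in GFP low and 9 of them by 2-fold or more. Of all measured probe sets that name 1 gene, 51.3% read higher and 8.31% did so by 2-fold or more.

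**Figure D1:**
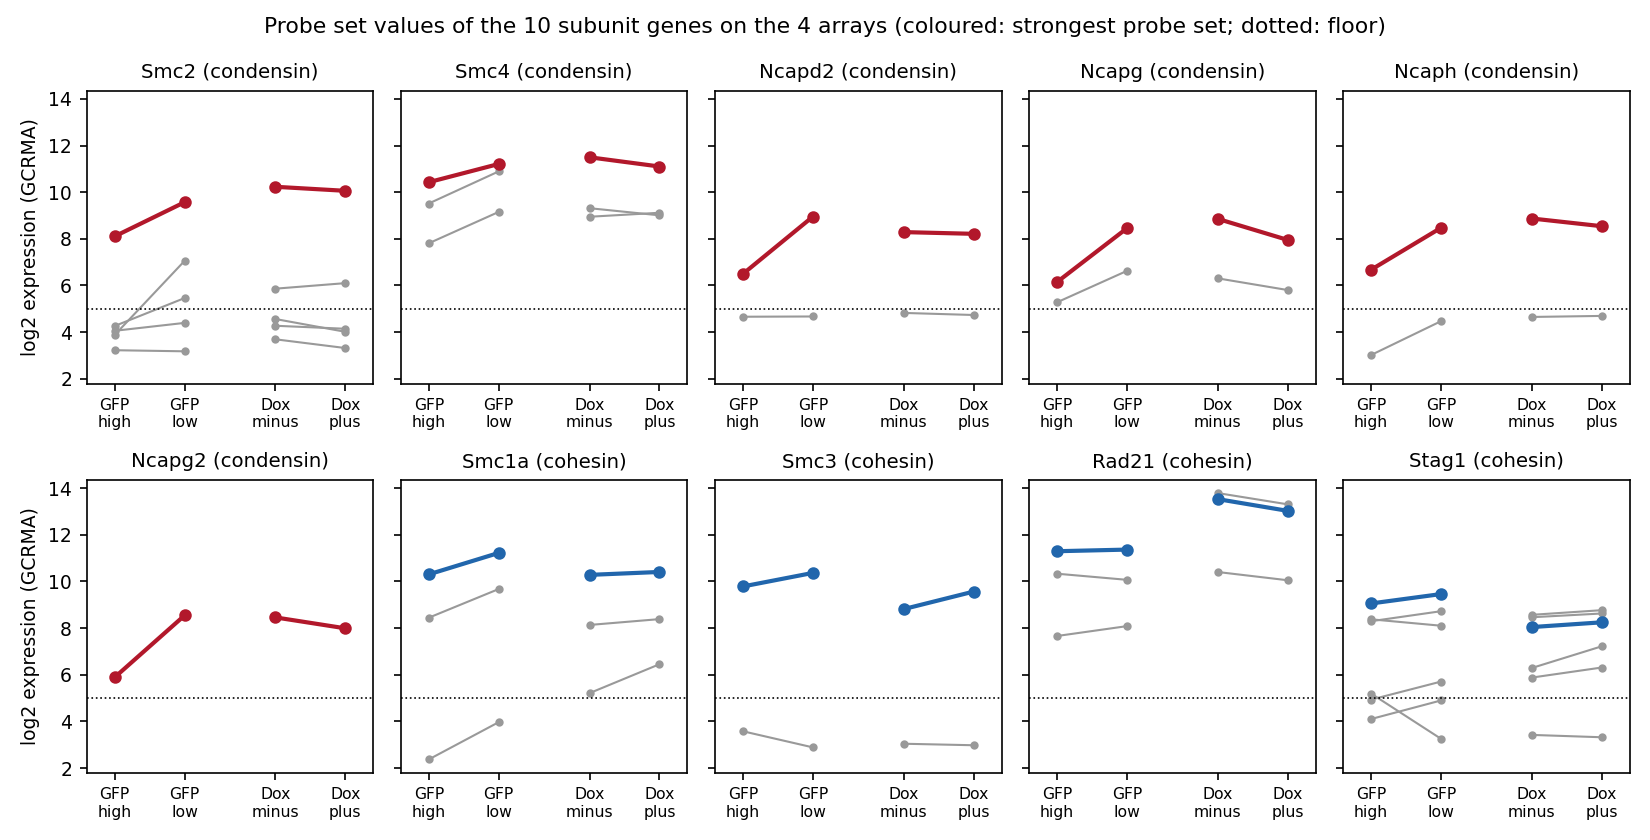
Log2 expression (GCRMA) of every probe set of the 10 genes on the 4 arrays, with lines joining the 2 arrays of a pair. Coloured lines are the strongest probe set (red condensin, blue cohesin), grey lines the others, and the dotted line the floor of 5. For Ncapd2, Ncapg, Ncaph and Ncapg2 the coloured GFP high values lie between 5.89 and 6.68 and the GFP low values between 8.45 and 8.95. Rad21 reads 11.30 and 11.36 on the sorted cells, and 13.53 and 13.03 on the crypts.

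The cohesin SMC pair is described first. Smc1a read 10.30 on GFP high, 11.22 on GFP low, 10.28 on Dox minus and 10.41 on Dox plus. The GFP difference was 0.92 (1.89-fold), and 1.23 on its second probe set, which brings the mean to 1.07; the third was under 5 on both sorted arrays. Smc3 read 9.78, 10.36, 8.81 and 9.56, a GFP difference of 0.58 (1.49-fold). Its second probe set was under 5 on all arrays.

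Rad21, the kleisin that separase cuts at anaphase, read 11.30 on GFP high and 11.36 on GFP low, a difference of 0.07. Its other probe sets gave 0.42 and -0.26, so the sign was not settled, and 52.1% of measured genes lay below it. Stag1, which binds Rad21 and helps place cohesin on chromatin, read 9.06 and 9.46, a difference of 0.40 (1.32-fold). Its 4 other probe sets measured in this pair went both ways: 0.43, at least 0.71, -0.27, and 1 that read 5.19 on GFP high and 3.25 on GFP low. In all, 8 of 11 measured cohesin probe sets read higher in GFP low and 3 lower. Of all measured probe sets that name 1 gene, 51.3% read higher. By 2-fold or more, 1 of the 11 was higher, against 8.31% of all.

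Set in order, the GFP differences ran Ncapg2, Ncapd2, Ncapg, Ncaph, Smc2, Smc1a, Smc4, Smc3, Stag1 and Rad21. Only Smc1a, at 0.92, lay above the lowest condensin gene, Smc4 at 0.78, and no cohesin gene lay above the other condensin genes. With 1 array per group there is no replicate spread to set these gaps against, so neighbours in the order cannot be told apart. The order also moves with the probe sets: as means of measured probe sets, Ncapg (1.83) and Ncaph (1.80) differ by far less than on their strongest ones, and Smc4 (1.17) lies above Smc1a (1.07). The medians of condensin and cohesin lay 1.56 apart, so condensin was 2.95-fold higher relative to cohesin in GFP low than in GFP high.

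**Figure D2:**
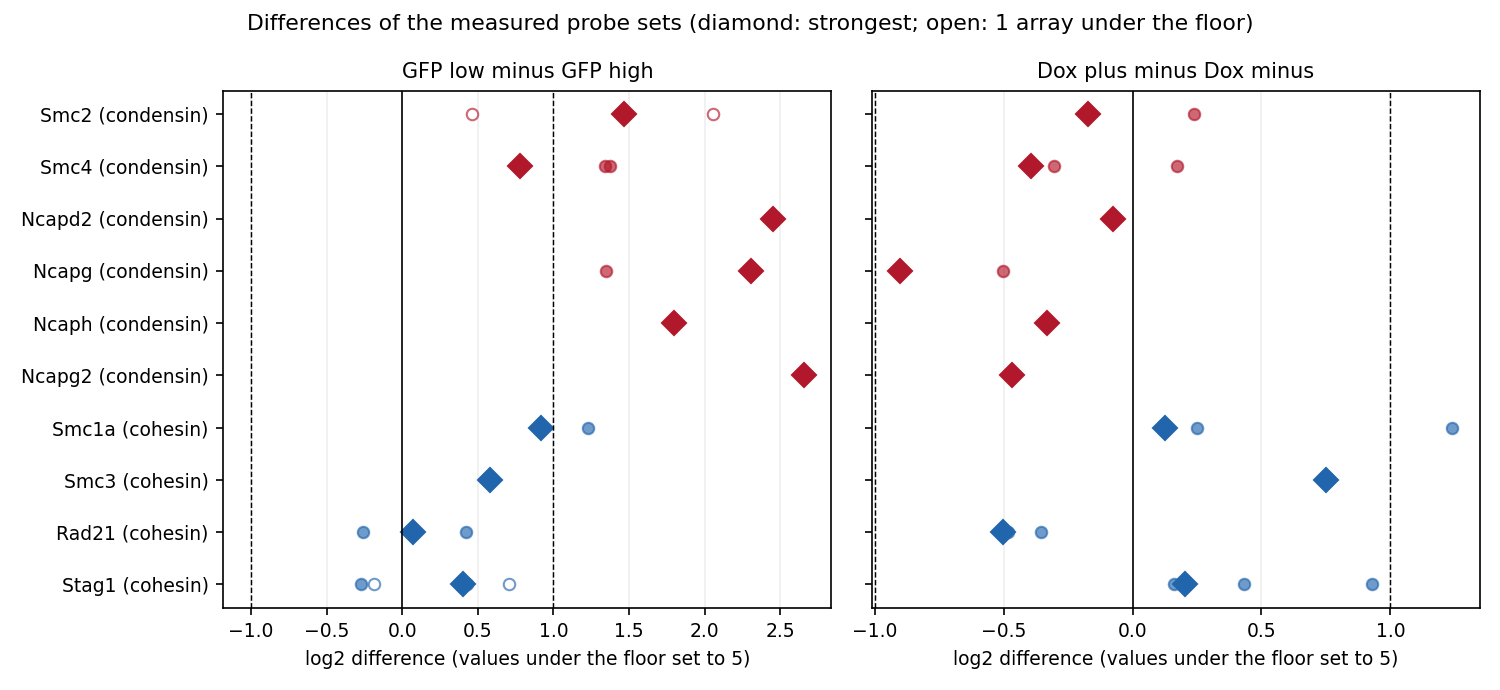
Log2 difference of every measured probe set, by gene, for the GFP pair (left) and the Dox pair (right); diamonds are the strongest probe set, circles the others, open circles have 1 array under the floor and are bounds, and dashed lines mark 2-fold. On the left all condensin points lie above 0, from 0.46 to 2.65, while cohesin points run from -0.27 to 1.23. On the right the condensin diamonds lie from -0.90 to -0.07 and the cohesin diamonds from -0.50 to 0.75.

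The second comparison sets crypts after 5 days of doxycycline against untreated crypts of the same line. All 6 condensin genes read lower in Dox plus, and 0 of them by 2-fold; of the 9537 genes measured in this pair 5.35% were lower by 2-fold or more, and 45.0% read lower at all. Their median was -0.36 (1.29-fold), against 0.06 for all measured genes. Of the cohesin genes 3 read higher and 1 lower, with a median of 0.16 (1.12-fold); none was past 2-fold, which 6.93% of measured genes were in the higher direction, and 55.0% read higher at all.

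Ncapg had the lowest difference of the 10, from 8.86 on Dox minus to 7.95 on Dox plus (-0.90, 1.87-fold), and -0.50 on its second probe set. Only 6.32% of measured genes had a lower value. Ncapg2 differed by -0.47 (1.38-fold), Smc4 by -0.40 (1.32-fold), Ncaph by -0.33 (1.26-fold), Smc2 by -0.17 and Ncapd2 by -0.07. For Smc2 and Smc4 the probe sets went both ways: a second Smc2 probe set read 5.86 on Dox minus and 6.10 on Dox plus (0.24), and 1 of the Smc4 probe sets 8.95 and 9.12 (0.17). By probe set, 8 of 10 measured condensin probe sets read lower, against 43.4% of all probe sets. For Ncapg the lower value in Dox plus was seen on both probe sets, and for Smc2 the mean of its measured probe sets was 0.03.

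Cohesin genes split in this pair. Smc3 read 8.81 on Dox minus and 9.56 on Dox plus, 0.75 higher (1.68-fold), more than 88.0% of measured genes. Stag1 read 8.04 and 8.25 (0.20), and all 5 of its measured probe sets read higher, by 0.16 to 0.93. Smc1a read 10.28 and 10.41 (0.13), and all 3 of its probe sets read higher; its weakest, under 5 on both sorted arrays, read 5.21 and 6.45, a difference of 1.24. Rad21 went the other way on all 3 probe sets, by -0.35 to -0.50; its strongest read 13.53 on Dox minus and 13.03 on Dox plus. By probe set, 9 of 12 cohesin probe sets read higher, against 56.6% of all probe sets, 1 of them by 2-fold or more, against 7.88%, and the 3 lower ones were those of Rad21.

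In order, the Dox differences ran Smc3, Stag1, Smc1a, Ncapd2, Smc2, Ncaph, Smc4, Ncapg2, Rad21 and Ncapg. Here too no replicate spread tells neighbours apart. The cohesin genes other than Rad21 lay above every condensin gene, and the medians of the complexes differed by -0.53 (condensin minus cohesin, 1.44-fold). Condensin was thus higher relative to cohesin in GFP low than in GFP high, and lower relative to cohesin in Dox plus than in Dox minus.

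The comparisons share no array, and a gene can be placed by its pair of differences. Of 9023 genes measured in both pairs, 783 were at least 2-fold higher in GFP low, and of these 31.9% read lower in Dox plus and 68.1% higher. The 5 condensin genes past 2-fold in the GFP pair all read lower in Dox plus on their strongest probe sets. For Ncapd2 (-0.07, 1 measured probe set) and Smc2 (-0.17, but 0.03 as the mean of its probe sets) the sign was not settled. Both sizes are below 0.26, the median standard deviation between probe sets of a gene in the Dox pair. Beside them, 26 mitosis genes and 26 replication genes were listed as landmarks, with knowledge of how such genes had moved on these arrays. All 23 measured mitosis genes read higher in GFP low (median at least 2.22, with 4 bounds) and lower in Dox plus (median -0.79). Of the replication genes 21 of 22 read higher in GFP low (median at least 1.33, with 5 bounds) and 22 of 24 higher in Dox plus (median 0.55). In GFP low, genes with bounds were measured only through that array, which fixed their sign. The GFP medians moved with the settings, from 1.97 to 2.28 for mitosis and from 1.21 to 1.41 for replication. Over all measured genes, 53.2% read higher in GFP low. In Dox plus, 55.0% of all read higher and 45.0% lower. The condensin medians, 2.05 and -0.36, have the signs of the mitosis list in both pairs, with a smaller size in the Dox pair. The cohesin medians, 0.49 and 0.16, are both above 0, as are the medians of all measured genes (0.04 and 0.06) and of the replication list, and Rad21 read lower in Dox plus.

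**Figure D3:**
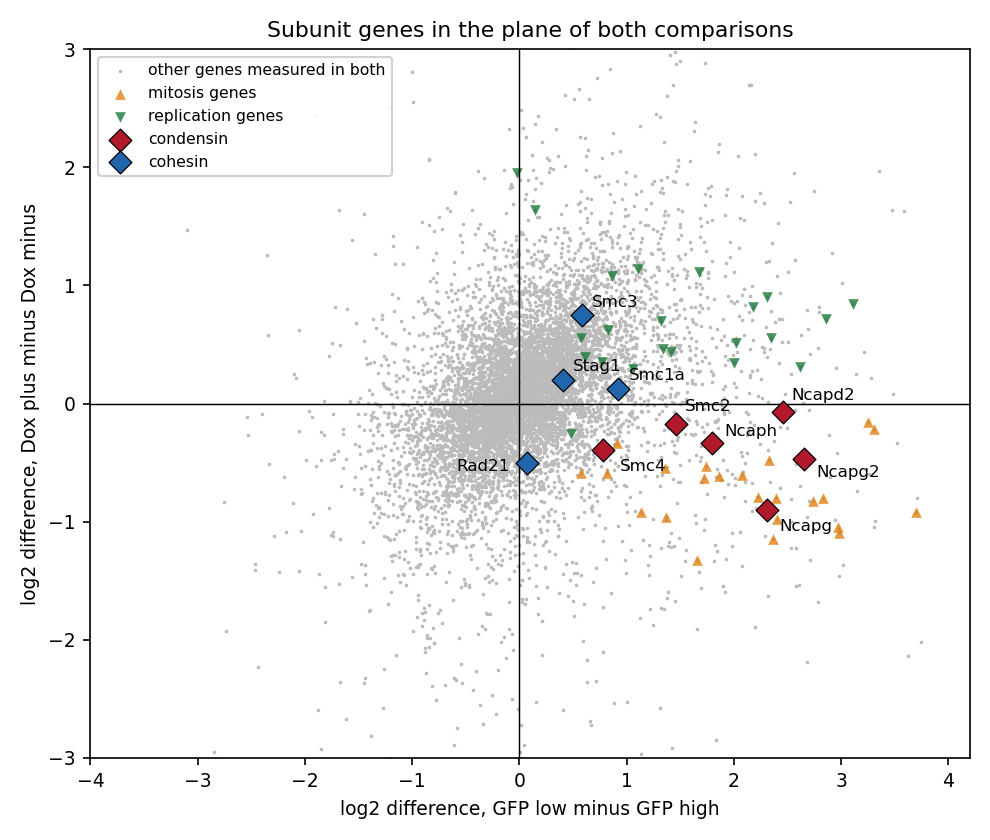
Log2 difference in the GFP pair (x axis) against that in the Dox pair (y axis) for genes measured in both; red diamonds are condensin, blue diamonds cohesin, orange triangles mitosis genes, green triangles replication genes, grey points other genes. Of 9023 genes, 45 lie outside the window. The 6 condensin genes lie at 0.78 or further right and below 0; Smc1a, Smc3 and Stag1 lie above 0, and Rad21 lies near 0 on the x axis and at -0.50 on the y axis.

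By distance in that plane, among 8568 other genes that reached 5 on all arrays, those nearest to the condensin medians were Birc5, Chst4, Cdca8, Top2a and Sytl4, at 0.05 to 0.15 log2 units. Birc5 differed by 2.07 (GFP) and -0.41 (Dox), and Top2a by 2.13 and -0.27. Within 0.5 of the condensin medians lay 55 genes. Nearest to the cohesin medians were Twistnb, Gtf3c6, Snrpc, Gmnn and Manf, at 0.01 to 0.02, and 2431 genes lay within 0.5, so the cohesin position is a common one on these arrays. The members themselves are spread around these medians. Condensin genes ran from 0.78 to 2.65 (GFP) and from -0.90 to -0.07 (Dox), and cohesin genes from 0.07 to 0.92 and from -0.50 to 0.75. Smc4, at 0.78 in the GFP pair, lies further than 0.5 from the condensin medians. The genes named are thus near the medians and not near each member. The likeness rests on 4 arrays, that is 2 differences per gene.

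The rest of the machinery was read from lists of known subunits and regulators. The condensin II subunits outside the member set did not share the size of Ncapg2. Ncapd3 read 8.15 on GFP high and 8.41 on GFP low (0.26, and 0.73 on a second probe set). Ncaph2, the condensin II kleisin, read 9.94 and 10.15 (0.21, with 4 probe sets from -0.43 to 0.39). In the Dox pair they differed by -0.28 and 0.03. Condensin II subunits thus ran from 0.21 to 2.65 in the GFP pair, and the 3 condensin I subunits from 1.80 to 2.46.

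Stag2, the alternative to Stag1 in cohesin, read 10.49 on GFP high and 10.64 on GFP low (0.15, and -0.40 on its second probe set), and 10.61 on Dox minus and 11.09 on Dox plus (0.48). The meiotic cohesin subunits Smc1b, Rec8 and Stag3 stayed under 5 on all 4 arrays.

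Regulators of cohesin went several ways. Of 10 genes for loading, acetylation and release 3 were 2-fold or more higher in GFP low and 0 lower, with a list median of -0.03, where 8.81% of all measured genes were 2-fold higher. The 3 were Esco2, the acetyltransferase that acts during replication (3.79 on GFP high and 6.83 on GFP low, at least 1.83), Cdca5, or sororin, which protects cohesion until mitosis (7.89 and 9.47, 1.58), and Pds5b, a cohesin-associated HEAT-repeat protein (6.36 and 7.39, 1.03, but -0.12 on its second probe set). Nipbl, the loader, differed by 0.54, with 3 probe sets from -0.05 to 0.77. Wapl, which releases cohesin from chromatin, read 10.54 and 10.26 (-0.28), but its 3 probe sets ran from -2.18 to -0.13, and those of Mau2, the partner of Nipbl, from -1.10 to -0.07. Wapl and Mau2 were chosen after their values were seen. In Dox plus none of the 10 was past 2-fold and the median was -0.13. Pds5a (0.62), Esco2 (-0.62), Pds5b (0.54) and Esco1 (-0.33) lay furthest from 0.

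Genes that protect or release cohesion at the centromere and at anaphase read higher in GFP low in 4 of 4 measured cases, against 53.2% of all genes. Their median was at least 0.86, since Haspin and Espl1 have bounds only, and ran from 0.75 to 0.98 across settings. Haspin and Espl1 were measured only through GFP low, which fixed their sign. A further listed gene, Sgo2a, stayed under 5 on all arrays and was not counted. Sgo1, the shugoshin that shields centromeric cohesin, was past 2-fold (6.71 and 7.86, 1.15). Haspin, a histone H3 kinase, differed by at least 0.90, the securin Pttg1 by 0.82 (3 probe sets from -0.22 to 0.82) and separase, Espl1, by at least 0.60. In the Dox pair the 3 measured genes differed by -0.49 (Espl1), -0.07 (Sgo1) and -0.02 (Pttg1). The related SMC complex of Smc5 and Smc6, which acts in DNA repair, had a median of 0.05 over 8 genes in the GFP pair, with 0 past 2-fold. Nsmce1 (0.71), Slf2 (0.57), Smc5 (-0.46) and Nsmce4a (0.32) lay furthest from 0. In the Dox pair 7 of 8 read higher (median 0.24), against 55.0% of all measured genes. Nsmce3 (0.74), Smc6 (0.35), Slf1 (0.32) and Nsmce1 (0.29) lay furthest from 0.

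Proteins that work with condensin on mitotic chromosomes read higher in GFP low in 7 of 7 cases, against 53.2% of all measured genes. Of these 7, 4 were higher by 2-fold or more, against 8.81% of all. The list median was at least 1.69, the bound of Kif4, which was measured only through GFP low, so its sign was fixed. The median depended on the settings: it was 2.01 with a floor of 4, 0.69 with a floor of 6, 1.09 with means of probe sets and 0.69 without the suffixes _x_at, _s_at and _a_at. The 4 were Mki67, which coats mitotic chromosomes (2.17), the topoisomerase Top2a (2.13, though 0.05 on its second probe set) and the chromokinesins Kif22 (2.01) and Kif4 (at least 1.69). In Dox plus, Mki67 (-0.67), Kif22 (-0.63) and Kif4 (-0.49) read lower and Mcph1, which restrains condensin II in interphase, read higher (6.04 and 6.71, 0.67), with a list median of -0.27. Among mitotic kinases and chromosomal passenger subunits that act on condensin, 6 of 7 were past 2-fold in GFP low (median at least 2.07, and 2.05 to 2.44 across settings). The share over all measured genes was again 8.81%. Cdk1, which phosphorylates condensin, differed by 3.52, Plk1 by 3.31, Cdca8 by 2.12 and Birc5 by 2.07. All 7 read lower in Dox plus (median -0.51), against 45.0% of all measured genes. Aurkb (-1.24) and Plk1 (-1.04) were past 2-fold, against 5.35% of all, followed by Aurka (-0.77) and Incenp (-0.51).

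**Figure D4:**
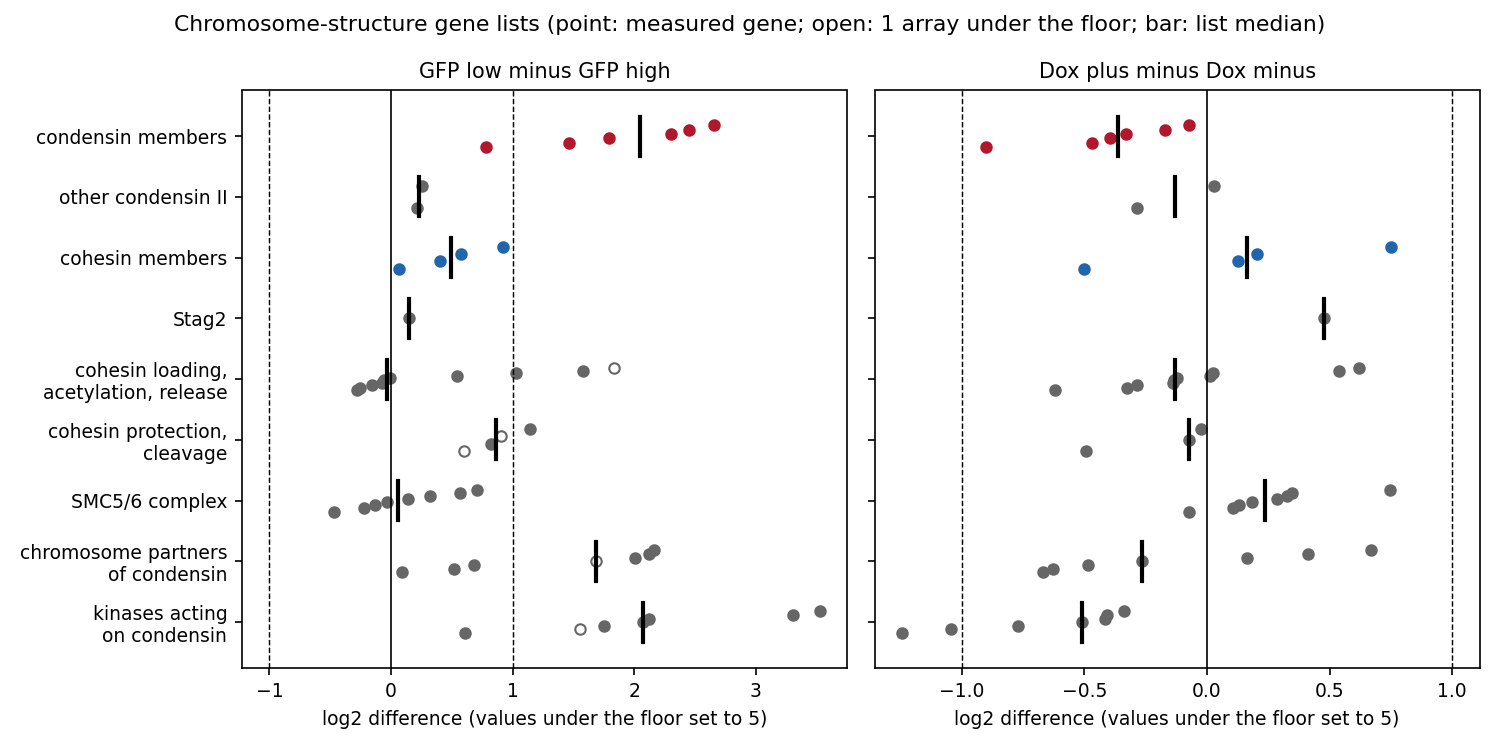
Log2 differences of the measured genes of 9 chromosome-structure lists in the GFP pair (left) and the Dox pair (right); each point is a gene, open points have 1 array under the floor and are bounds, black bars are list medians and dashed lines mark 2-fold. Condensin members have a median of 2.05 on the left and -0.36 on the right, cohesin members 0.49 and 0.16, and the other condensin II subunits 0.23 and -0.13.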

How the data were processed

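The values used are the authors' log2 expression table of 45101 probe sets on 4 arrays. They were computed by GCRMA, a background-modelling summary of the probes, per the submitters' processing notes; the sources used here give neither its version nor which arrays were run together. RNA was Trizol-extracted and biotin-labelled as cRNA, per the labels' protocols. The log2 scale was read from the values (0.47 to 16.27). Probe sets with 1 symbol in the platform annotation were used (932 had several and 9211 none); gene IDs and symbols of all 10 members matched RefSeq. A gene is represented by the probe set that is strongest on average across all arrays, and is measured in a pair where at least 1 array reaches 5. Values under 5 were set to 5, so a difference with 1 array under 5 is a bound. Differences were taken within pairs, with 2-fold as the call. With 1 array per group there was no test, and precision is limited by the number of arrays.

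The members and lists were chosen with earlier results of these data known. All members were named, and up to 4 genes of each other list by size of difference; the rule for likeness is the distance in the plane of both differences. The computation (Python 3.11.15, pandas 2.3.3, numpy 2.4.6, statsmodels 0.14.6) was tested on simulated data. The alternatives were floors of 4 and 6, no floor, quantile normalization and loess (span 0.4) within pairs, the mean of measured probe sets, dropping the suffixes _x_at, _s_at and _a_at (possible matches to several transcripts), and a 1.5-fold call. Protein sequences were not analysed here.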

Additional observations from a re-analysis of the deposited data

How the results depend on the processing

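The differences of the 10 genes kept their sign under all settings run, except Smc2 in the Dox pair (-0.17, and 0.03 as the mean of its probe sets). Several settings could not change a sign. The strongest probe sets read 5.89 or more on all arrays, so a floor of 4 or none left them as they were. Genes with 1 measured probe set could not move with the mean. Rad21 kept its sign in the GFP pair (0.07), though its other probe sets gave 0.42 and -0.26. In the GFP pair the condensin median ran from 1.81 to 2.05 and the cohesin median from 0.40 to 0.49. In the Dox pair they ran from -0.44 to -0.25 and from 0.08 to 0.46. The cohesin value of 0.46 is the mean of measured probe sets, against 0.16 as reported.

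The count of condensin genes past 2-fold in the GFP pair was 3, of 4 measured, when the suffixes _x_at, _s_at and _a_at were dropped, which left Ncapg and Ncaph with no measured probe set. Of all genes measured under that setting, 690 of 7897 were higher by 2-fold or more. The condensin count was 6 of 6 with the mean of probe sets, which put 1 of 4 cohesin genes (Smc1a) past 2-fold. With that mean, 810 of 9393 genes were higher by 2-fold or more. In the Dox pair, quantile normalization put 1 of 6 condensin genes (Ncapg, -1.03) past 2-fold, where 598 of 9535 measured genes were lower by 2-fold or more. With a 1.5-fold call the counts in the Dox pair were 1 of 6 condensin and 1 of 4 cohesin genes. In the GFP pair they were 6 of 6 condensin genes and 1 of 4 cohesin genes. The 1.5-fold call gave 1730 higher and 1182 lower genes among the 9381 measured in the GFP pair. Among the 9537 measured in the Dox pair it gave 1659 higher and 1113 lower. Quantile normalization made 47.3% of called genes in the Dox pair higher, against 56.4% as deposited. The probe set mean of Stag2 in the GFP pair was -0.12. No paired analysis was possible because each group is 1 array. Signals near 5 limit what can be read of the weaker probe sets of Smc2, Smc1a and Stag1.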
